A study of Caenorhabditis elegans with 6 samples.

Results

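The heat shock and DnaJ chaperone genes of Caenorhabditis elegans were followed in early embryos of 3 genotypes. They were taken as every row of the gene count table whose symbol starts with hsp- or dnj-, which gave 51 of 20182 genes, 22 of them hsp and 29 dnj. The rule used names only and no measured value. By family, 13 rows were small heat shock proteins, 6 were HSP70 or HSP110 genes, 2 were HSP90 genes, 1 was the mitochondrial chaperonin hsp-60 and 29 were DnaJ (HSP40) genes.

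Chaperones bind unfolded or partly folded proteins. Small heat shock proteins hold them in a soluble state, while HSP70 and HSP90 refold or mature them in cycles of ATP hydrolysis, and DnaJ proteins bring clients to HSP70 and start its hydrolysis of ATP. Some of these genes are transcribed in every cell, among them the HSC70 gene hsp-1, and others, among them the hsp-16 genes and hsp-70, are known in worms to be nearly silent until the heat shock factor HSF-1 is activated by heat or another stress. HSP70 paralogs serve separate compartments, with hsp-3 and hsp-4 in the endoplasmic reticulum and hsp-6 in mitochondria.

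The groups were wild-type embryos (strain GW1), embryos of cec-4_delta (strain GW828) and embryos of met-2 set-25_delta_delta (strain GW638), with 2 independently grown cultures of each, called libraries 1 and 2 after the replicate number in the labels. CEC-4 is a chromodomain protein that anchors chromatin methylated at histone H3 lysine 9 to the nuclear periphery, and MET-2 and SET-25 are the methyltransferases that deposit this mark. Animals of every genotype were grown in liquid culture at 20 °C for 60 to 65 h and their embryos were released with hypochlorite, and the labels give no heat shock for any group. Each mutant is a single strain, and early embryos are a mixture of stages and cell types. Libraries held 30171874 to 45677214 counts over genes. Levels are given as CPM, a library's counts scaled to a common total with TMM factors. Summed CPM of 6 body wall muscle markers, such as myo-3 and unc-54, ran from 491 to 946 in wild-type, from 507 to 1000 in cec-4 embryos and from 505 to 631 in met-2 set-25, with library 2 the higher each time. Summed CPM of 6 vitellogenin genes, which mark the adult intestine, stayed between 0.295 and 0.744.

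The deleted genes were read first. The level of cec-4 was 282 and 272 CPM in wild-type, 99.7 and 77.9 in cec-4 embryos and 316 and 285 in met-2 set-25 embryos. The level of met-2 was 400 and 358 CPM in wild-type, 413 and 417 in cec-4 embryos and 80.3 and 72.01 in met-2 set-25 embryos. The level of set-25 was 113 and 95.3 CPM in wild-type, 117 and 116 in cec-4 embryos and 28.4 and 23.1 in met-2 set-25 embryos. Each deleted gene was therefore lowest in both libraries of its own mutant, with counts remaining there.

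The 51 chaperone genes together took 0.884% to 0.971% of all gene counts. Their summed level was 9502 and 9643 CPM in wild-type, 9817 and 10220 in cec-4 embryos and 9397 and 8248 in met-2 set-25 embryos. In CPM the cec-4 libraries were thus above and the met-2 set-25 libraries below those of wild-type. As shares of gene counts, wild-type had 0.9505% and 0.9698%, cec-4 embryos 0.9708% and 0.9565% and met-2 set-25 embryos 0.9402% and 0.884%. By share the cec-4 libraries therefore overlapped wild-type, and the TMM factor of cec-4 library 2 was 0.936. In extracts of whole embryos, fewer cells of a type and less RNA per cell cannot be told apart.

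Of the 51 genes, 46 had enough counts to enter the test. The 5 that did not were all small heat shock genes. Among them hsp-16.1, hsp-16.11, hsp-16.48 and hsp-16.49 had 0 counts in all 6 libraries, where 3 counts would correspond to 0.0657 to 0.0994 CPM. These 4 genes lie in a block of 3312 bp on chromosome V, 9087293-9090604 in the WBcel235 annotation, as a duplicated pair of near copies. The sources used here do not say how reads that match more than 1 place were counted, so a count of 0 in these copies does not show that they were not transcribed. The fifth, hsp-12.6, stood at 0.0331 to 0.197 CPM.

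Levels between genes were compared as CPM per kb of the deposited gene width, which is a coding length. In wild-type the highest was hsp-3, a worm homolog of the ER chaperone BiP, at 901 ± 204 (SD, n = 2) CPM per kb, above 99.6% of all genes tested. Next came hsp-90, the cytosolic HSP90 formerly named daf-21, at 668 ± 104 CPM per kb. The spreads of hsp-3 and hsp-90 overlap.

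Below them, dnj-19, a DNAJA-type cytosolic partner of HSP70, stood at 377 ± 20.1 CPM per kb, and hsp-1 at 315 ± 35.9. The next was dnj-11, a relative of the ribosome-associated zuotin of yeast, at 283 ± 64.0 CPM per kb, and it did not stand apart from hsp-1 beyond these spreads. The mitochondrial pair hsp-60 (110 ± 6.23) and hsp-6 (110 ± 5.65) had like levels, and hsp-75, the worm homolog of TRAP1, had 76.6 ± 12.22 CPM per kb. At the low end were hsp-70 at 3.73 ± 2.04, hsp-17 at 3.58 ± 0.0395 and hsp-43 at 3.45 ± 0.977 CPM per kb, whose spreads overlap.

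**Figure D1:**
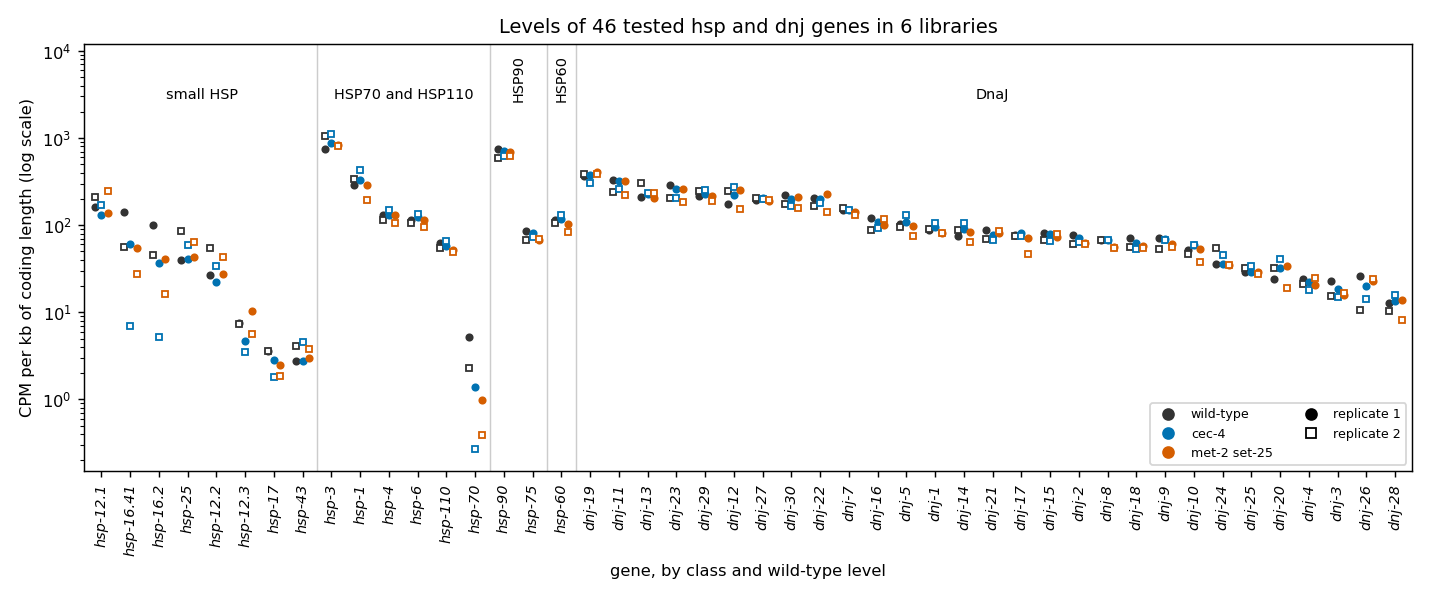
Level of each of the 46 tested genes in CPM per kb of coding length (log axis), grouped by family and ordered by wild-type mean, with 1 point per library. Most genes keep their 6 points close together, while hsp-16.2, hsp-16.41 and hsp-70 spread over more than 10-fold.

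The widest variation lay in 3 heat-inducible genes. The small heat shock genes hsp-16.2 and hsp-16.41 and the stress-inducible HSP70 gene hsp-70 were highest in wild-type library 1 and lowest in cec-4 library 2. Their highest library exceeded their lowest by 19.4-fold for hsp-16.2, 20.3-fold for hsp-16.41 and 18.97-fold for hsp-70. Among the 11239 genes with a mean of at least 1 CPM, 11, 10 and 12 genes respectively had a larger ratio. The next member was hsp-12.3 at 2.89-fold, and the median was 1.502-fold over the 46 genes and 1.56-fold over the 11239.

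The level of hsp-16.2 (WBGene00002016, V:1804334-1804957, minus strand) was 44.2 and 19.7 CPM in wild-type, 15.9 and 2.28 in cec-4 embryos and 17.7 and 7.03 in met-2 set-25 embryos. Both wild-type libraries were above all 4 mutant libraries. The mutant means were 28.5% of wild-type in cec-4 embryos and 38.7% in met-2 set-25. On the log2 scale the difference from wild-type was -1.80 ± 0.807 (SE) in cec-4 embryos and -1.37 ± 0.797 in met-2 set-25, with edgeR adjusted p of 0.9998 and 0.9997, so neither passed.

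The level of hsp-16.41 (WBGene00002018, V:1805178-1805875, plus strand) was 60.98 and 24.03 CPM in wild-type, 26.4 and 3.01 in cec-4 embryos and 23.8 and 11.8 in met-2 set-25 embryos. Wild-type was above both met-2 set-25 libraries, but cec-4 library 1 lay between the wild-type values. The log2 difference was -1.53 ± 0.843 in cec-4 embryos and -1.26 ± 0.838 in met-2 set-25, again with edgeR adjusted p of 0.9998 and 0.9997. The 2 genes are neighbours transcribed away from each other, 220 bp apart. Per kb, hsp-16.41 stood at 1.24 to 1.70 times hsp-16.2 in every library, so the pair kept a ratio within this range while each gene varied by 19.4-fold or more.

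The level of hsp-70 (WBGene00002026, I:9320325-9322519, minus strand) was 9.98 and 4.42 CPM in wild-type, 2.68 and 0.526 in cec-4 embryos and 1.92 and 0.762 in met-2 set-25 embryos. Both wild-type libraries were above all 4 mutant libraries, whose means were 22.3% and 18.6% of wild-type. The log2 difference was -2.15 ± 0.735 in cec-4 (unadjusted p = 0.0186, edgeR adjusted p = 0.9998). In met-2 set-25 it was -2.44 ± 0.754 (unadjusted p = 0.0113, edgeR adjusted p = 0.407). This was the smallest p of any member against wild-type, and it did not pass.

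Whether hsp-70 passed in met-2 set-25 depended on the test. Its adjusted p was 0.0106 with DESeq2 and 0.0308 in edgeR without the low-count filter, and over all alternatives it ranged from 0.00908 to 0.9999. The gene uggt-2 overlaps hsp-70 on the opposite strand, and the sources used here do not say whether strand was used in counting. The level of uggt-2 was 2.58 and 2.46 CPM in wild-type, 3.18 and 3.39 in cec-4 embryos and 2.42 and 1.99 in met-2 set-25 embryos. The part of opposite-strand reads in the counts of hsp-70 was not tested.

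Single libraries set the size of these differences. Without cec-4 library 1 the log2 difference of hsp-16.2 between cec-4 and wild-type was -3.80, and without cec-4 library 2 it was -0.99. For hsp-70 the same omissions gave -3.77 and -1.41, and without wild-type library 1 it was -1.43. Between the mutants, hsp-16.2, hsp-16.41 and hsp-70 differed by 0.43, 0.26 and -0.30 (met-2 set-25 against cec-4, log2), each with an SE between 0.753 and 0.831 and none past the threshold.

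**Figure D2:**
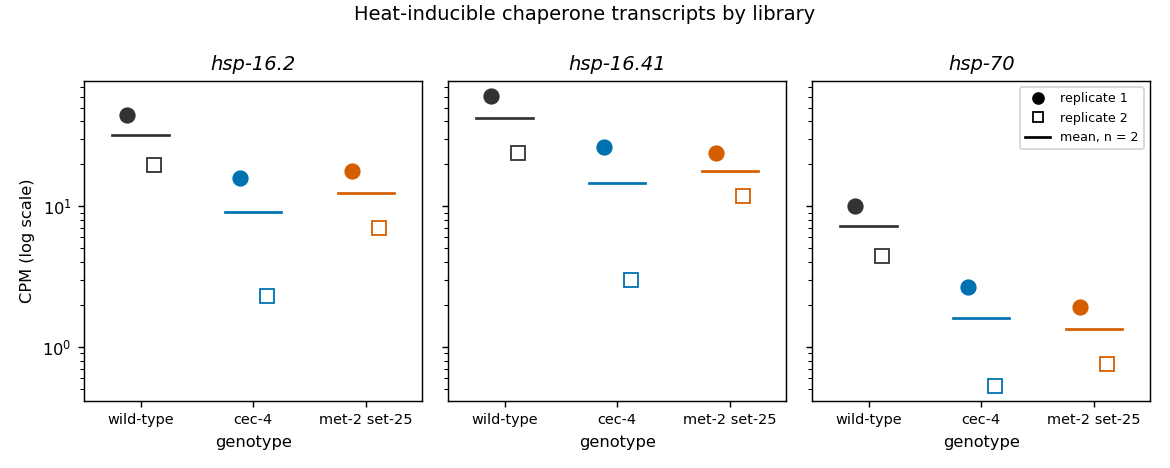
CPM (log axis) of hsp-16.2, hsp-16.41 and hsp-70 by genotype, with filled circles for library 1, open squares for library 2 and a bar at the mean of n = 2. In every genotype library 1 lies above library 2, and for hsp-16.2 and hsp-70 both wild-type points lie above all mutant points.

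The same 3 genes also separated the cultures within each genotype. Library 1 exceeded library 2 of hsp-16.2 by 2.24-fold in wild-type, 6.98-fold in cec-4 embryos and 2.52-fold in met-2 set-25. For hsp-16.41 the ratios were 2.54, 8.77 and 2.03, and for hsp-70 they were 2.26, 5.09 and 2.52. The cultures of cec-4 were the furthest apart for each gene. Other counts differed between the libraries too. The summed level of the 6 body wall muscle markers was higher in library 2 (in met-2 set-25 lev-11, mlc-3 and unc-15 were not). The summed level of 8 early zygotic markers was higher in library 1. It was 288 against 151 CPM in wild-type, 241 against 172 in cec-4 embryos and 311 against 219 in met-2 set-25. Most of that sum came from pes-10, at 228 and 113 CPM in wild-type. The marker sdz-24 was higher in library 2 in all 3 genotypes, and hlh-27 and tbx-37 were in cec-4 embryos. The part of these markers in the heat-inducible levels was not tested.

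Transcripts of the regulator did not vary in this way. HSF-1 activates the hsp-16 genes and hsp-70, and hsf-1 stood at 141 and 135 CPM in wild-type, 142 and 153 in cec-4 embryos and 144 and 123 in met-2 set-25 embryos. Its log2 difference from wild-type was 0.10 ± 0.164 in cec-4 embryos and -0.04 ± 0.164 in met-2 set-25. Transcript levels do not measure the activity of HSF-1. Of 6 genes of other stress responses, among them gst-4 and mtl-1, the summed level was 6.72 and 18.5 CPM in wild-type, 11.4 and 13.1 in cec-4 embryos and 13.5 and 5.83 in met-2 set-25 embryos, most of it from gst-4 and nlp-29. On its own mtl-1 had 0.285 and 0.382 CPM in wild-type, 0.204 and 0.146 in cec-4 embryos and 0.166 and 0.123 in met-2 set-25. These levels were low, since 3 counts would correspond to 0.0657 to 0.0994 CPM. Its wild-type libraries were above all 4 mutant libraries, as for hsp-16.2 and hsp-70. That order was seen for 2.7% of all genes tested, and not for gst-4, sod-3 or nlp-29 of the same list.

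The other small heat shock genes varied less. The level of hsp-12.3 was 2.47 and 2.41 CPM in wild-type, 1.57 and 1.17 in cec-4 embryos and 3.38 and 1.84 in met-2 set-25 embryos. Both cec-4 libraries were below all others. Its log2 difference from wild-type in cec-4 was -0.83 ± 0.383 (edgeR adjusted p = 0.9998). The level of hsp-17 was 1.60 and 1.62 CPM in wild-type, 1.27 and 0.818 in cec-4 embryos and 1.13 and 0.836 in met-2 set-25 embryos.

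Wild-type was above both mutants for hsp-17 as well, by log2 differences of -0.61 ± 0.369 and -0.72 ± 0.374, neither past the threshold. This order with no overlap was seen for 3 of 46 members (6.52%), hsp-16.2, hsp-17 and hsp-70, and for 2.7% of all genes. The gene hsp-17 overlaps F52E1.14 on the opposite strand. Of the tested small heat shock genes with an hsp- symbol, hsp-12.1 was the most abundant per kb and had 54.9 and 71.5 CPM in wild-type, 44.9 and 57.2 in cec-4 embryos and 47.3 and 83.8 in met-2 set-25 embryos, and the groups overlapped. Of the 8 tested small heat shock genes, 7 had a negative log2 difference in cec-4 embryos (median -0.58) and 6 in met-2 set-25 (median -0.20). These 8 include hsp-16.2 and hsp-16.41. For the other 6 the medians were -0.43 in cec-4 embryos (1 positive) and -0.10 in met-2 set-25 (2 positive). Over all genes 45.3% and 45.9% were positive.

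Across all 46 genes, edgeR called 0 in cec-4 against wild-type, where 0.00717% of the 13951 genes tested were called. It called 0 between met-2 set-25 and wild-type (0.688% of all genes, with 0.659% higher and 0.0287% lower) and 0 between the mutants (0.638%, with 0.609% higher and 0.0287% lower). At an unadjusted p below 0.05 there were 1, 1 and 4 members, beside 0.939%, 5.71% and 10.2% of all genes. DESeq2 called 0, 1 and 0 members, limma voom 0 in each, and limma on the deposited log2 values 0 in each. The first 2 comparisons share the wild-type libraries, and the third shares a mutant with each. With cec-4 against wild-type calling 1 gene in all, a call was rare for any gene there. That gene was higher in cec-4 embryos, and 0 genes were called lower. The deleted gene cec-4, at 282 and 272 CPM in wild-type and 99.7 and 77.9 in cec-4 embryos, was thus not called.

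In cec-4 the log2 differences from wild-type were balanced, with 23 of 46 positive and a median of -0.0031, beside 45.3% positive and a median of -0.02 over all genes. Of the 46 members, 40 lay within 0.5 of zero, or 87.0% (88.9% of all genes). Both cec-4 libraries were above both of wild-type for 10 members (11.8% of all genes) and below for 4 (10.2% of all genes). The 10 were hsp-4, hsp-6, hsp-60, dnj-1, dnj-5, dnj-8, dnj-10, dnj-14, dnj-20 and dnj-28, and the 4 were hsp-12.3, hsp-16.2, hsp-17 and hsp-70.

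In met-2 set-25 most members were slightly below wild-type. The log2 difference was positive for 8 of 46, with a median of -0.13, beside 45.9% and -0.03 over all genes. Without wild-type library 1 it was positive for 19 of 46, and without met-2 set-25 library 2 for 16, while the median without met-2 set-25 library 1 was -0.22. Both met-2 set-25 libraries were below both of wild-type for 14 members, or 30.4% (12.7% of all genes), and above for 0 (14.5% of all genes). Of the 46, 42 were within 0.5 of zero, or 91.3% (84.4% of all genes). Between the mutants, both met-2 set-25 libraries were below both of cec-4 for 20 members (21.2% of all genes) and above for 4 (23.7%).

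Lists of cell type and stage markers were read in the same way, and edgeR called 0 genes between met-2 set-25 and wild-type in each list that follows. The median log2 difference was -0.37 for body wall muscle (1 of 6 positive), -0.38 for neurons (0 of 5), -0.30 for epidermis (0 of 4 tested), -0.10 for maternal transcripts (2 of 8) and 0.22 for early zygotic transcripts (7 of 8). In cec-4 the maternal transcripts had 8 of 8 positive and a median of 0.19. The part of these markers in the levels of chaperone genes was not tested.

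**Figure D3:**
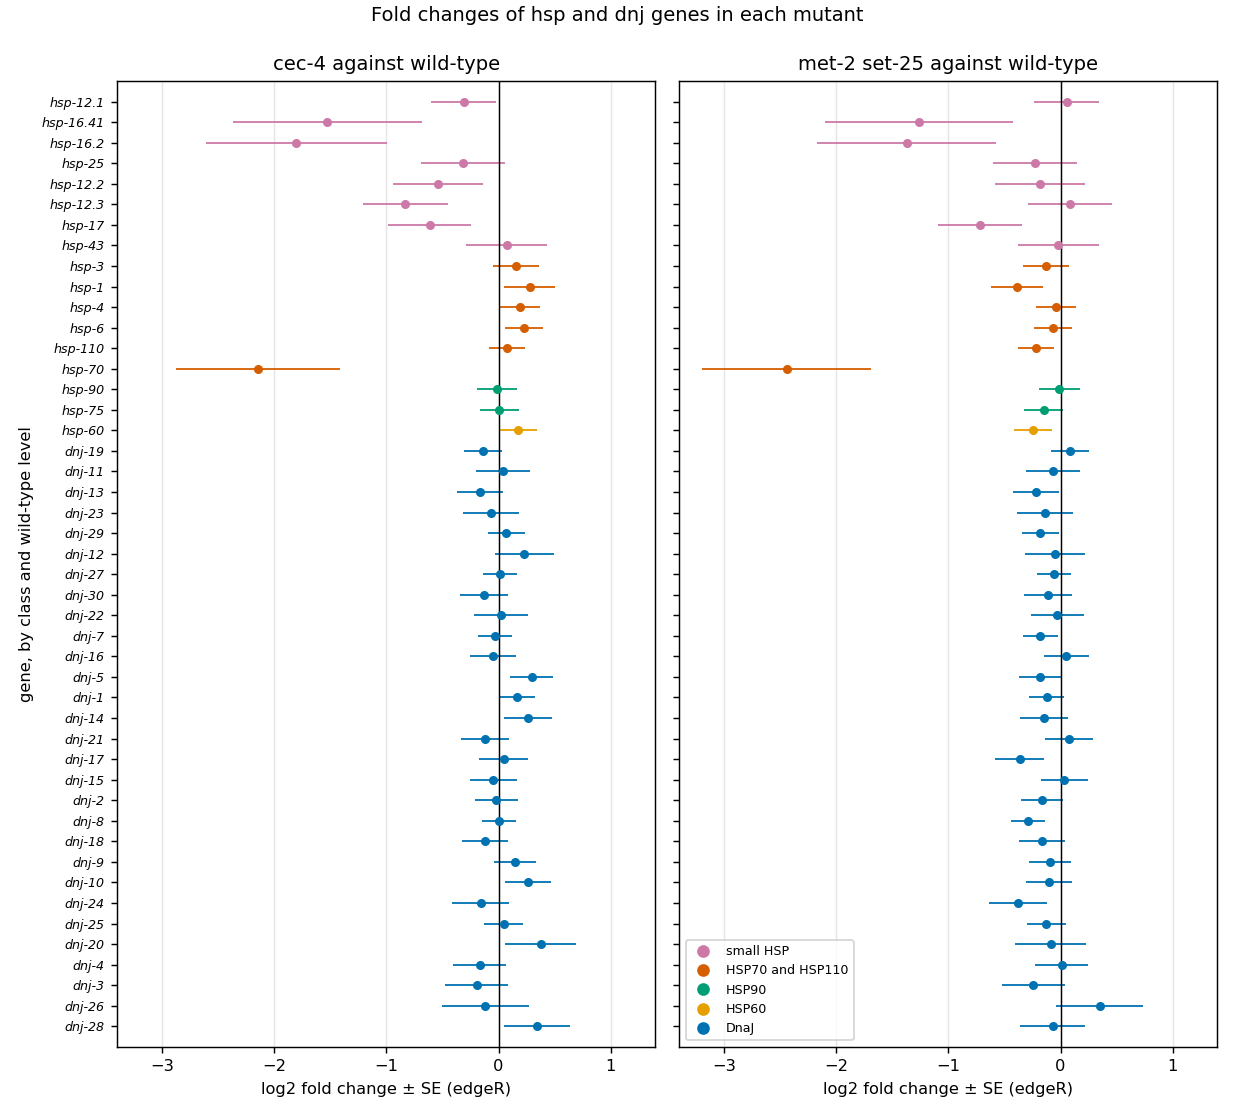
The log2 fold change of each tested gene in each mutant against wild-type, with 1 SE to either side, coloured by family. The 3 heat-inducible genes lie below -1 with the widest errors, hsp-12.3, hsp-17 and hsp-12.2 lie beyond -0.5 in at least 1 panel, the remaining genes lie within 0.5 of 0, and in met-2 set-25 only 8 of 46 points are above 0.

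Among the constitutive HSP70 genes, the cytosolic hsp-1 (IV:17278959-17281330) had 558 and 655 CPM in wild-type, 637 and 834 in cec-4 embryos and 550 and 377 in met-2 set-25 embryos. Both met-2 set-25 libraries were below all others, and the met-2 set-25 mean was 76.4% of wild-type. The log2 difference was -0.67 ± 0.230 between met-2 set-25 and cec-4 (edgeR adjusted p = 0.408), the largest among members in that direction, and -0.39 ± 0.229 from wild-type (edgeR adjusted p = 0.9997).

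The ER chaperone hsp-3 (X:6089028-6092124) had 1502 and 2076 CPM in wild-type, 1755 and 2235 in cec-4 embryos and 1660 and 1607 in met-2 set-25 embryos. Its paralog hsp-4, which the ER unfolded protein response induces, had 258 and 223 CPM in wild-type, 259 and 291 in cec-4 embryos and 258 and 211 in met-2 set-25 embryos. Neither mutant differed from wild-type beyond the spread for hsp-3. For hsp-4 both cec-4 libraries were above wild-type, the lower by less than 1 CPM. The nucleotide exchange factor hsp-110 had 145 and 128 CPM in wild-type, 136 and 152 in cec-4 embryos and 119.4 and 115 in met-2 set-25 embryos, with met-2 set-25 lowest.

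The 2 HSP90 genes were among the steadiest. The level of hsp-90 was 1564 and 1255 CPM in wild-type, 1499 and 1296 in cec-4 embryos and 1476 and 1322 in met-2 set-25 embryos. The means in the mutants were 99.2% and 99.3% of wild-type, and the log2 differences were -0.01 ± 0.180 in both. The spread between cultures was larger than either difference. The mitochondrial hsp-75 had 172 and 137 CPM in wild-type, 162 and 148 in cec-4 embryos and 138 and 141 in met-2 set-25 embryos, and each mutant overlapped wild-type.

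The genes hsp-6 and hsp-60 are the usual reporters of mitochondrial stress. The level of hsp-6 was 225 and 209 CPM in wild-type, 243 and 265 in cec-4 embryos and 228 and 186 in met-2 set-25 embryos. The level of hsp-60 was 196 and 181 CPM in wild-type, 201 and 224 in cec-4 embryos and 174 and 144 in met-2 set-25 embryos. Both cec-4 libraries were the highest for each gene, and for hsp-60 both met-2 set-25 libraries were the lowest. The log2 difference of hsp-60 between met-2 set-25 and cec-4 was -0.42 ± 0.171 (unadjusted p = 0.0377, edgeR adjusted p = 0.462).

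An order of cec-4, then wild-type, then met-2 set-25 with no overlap was seen for 3 of 46 members (6.52%), hsp-60, dnj-1 and dnj-8, and for 1.89% of all genes. MET-2 has a known role in the mitochondrial unfolded protein response of worms, which hsp-6 and hsp-60 report. Neither passed the test in any comparison. Of 5 mitochondrial members (hsp-6, hsp-60, hsp-75, dnj-10 and dnj-21), 4 had a positive log2 difference in cec-4 embryos (median 0.17) and 1 in met-2 set-25 (median -0.10). Of 5 ER members (hsp-3, hsp-4, dnj-20, dnj-27 and dnj-29), 5 were positive in cec-4 embryos (median 0.16) and 0 in met-2 set-25 (median -0.09). Over all genes 45.3% were positive in cec-4 embryos and 45.9% in met-2 set-25. These lists are partial, since 18 DnaJ genes were assigned to no compartment here. Of those 18, 7 were positive in cec-4 embryos and 4 in met-2 set-25.

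All 29 DnaJ genes were tested, and their log2 differences from wild-type lay between -0.19 and 0.38 in cec-4 embryos and between -0.38 and 0.35 in met-2 set-25. Medians were 0.0077 with 15 of 29 positive in cec-4 embryos and -0.11 with 6 of 29 positive in met-2 set-25. The range covers transcripts of very different level, from dnj-19 at 377 CPM per kb to dnj-28 at 11.5 CPM per kb in wild-type. The steadiest was dnj-27, the worm counterpart of the ER reductase ERdj5, whose highest library exceeded its lowest by 1.08-fold.

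Of the cytosolic partners of HSP70, dnj-19 had 479 and 517 CPM in wild-type, 499 and 405 in cec-4 embryos and 544 and 514 in met-2 set-25 embryos. The DNAJB1-type gene dnj-13, which in worms works with HSP70 and HSP110 in dissolving aggregates, had 209 and 304 CPM in wild-type, 226 and 232 in cec-4 embryos and 206 and 234 in met-2 set-25 embryos. Neither mutant stood apart from wild-type for either gene. The ribosome-associated dnj-11 had 581 and 420 CPM in wild-type, 571 and 458 in cec-4 embryos and 563 and 394 in met-2 set-25 embryos, and in each genotype library 1 was the higher.

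Of the DnaJ genes, dnj-8 had the smallest p between met-2 set-25 and wild-type and dnj-5 the smallest between the mutants. The level of dnj-8 (II:6594382-6598080) was 166 and 165 CPM in wild-type, 167 and 166 in cec-4 embryos and 137 and 134 in met-2 set-25 embryos. The libraries of met-2 set-25 stood at 81.9% of wild-type on average with no overlap, while the 4 other libraries lay within 2 CPM of each other. The log2 difference from wild-type was -0.29 ± 0.151 (unadjusted p = 0.0909, edgeR adjusted p = 0.9997). The SE of the fit, which pools the spread over genes, was wider than these 6 values show.

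The level of dnj-5 (II:6853461-6858301) was 291 and 270 CPM in wild-type, 313 and 376 in cec-4 embryos and 280 and 214 in met-2 set-25 embryos. Both cec-4 libraries were the highest. The log2 difference between met-2 set-25 and cec-4 was -0.48 ± 0.190 (unadjusted p = 0.0348, edgeR adjusted p = 0.456). The vesicle genes dnj-14, encoding a cysteine string protein, and dnj-25, the worm auxilin, were likewise lower in both met-2 set-25 libraries than in both cec-4 libraries, by log2 differences of -0.41 ± 0.212 and -0.17 ± 0.174. The other DnaJ genes are shown by level and by fold change in the plots.

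Cultures of 1 genotype differed in a shared direction for part of the family. Library 1 was above library 2 in all 3 genotypes for 14 of 46 members (30.4%), beside 20.6% of all genes. Besides the 3 heat-inducible genes these were hsp-12.3, hsp-90 and 9 DnaJ genes, among them dnj-11 and dnj-23. Library 2 was above library 1 in all 3 genotypes for 6 of 46 members, beside 25.1% of all genes.

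Those 6 were hsp-12.1, hsp-12.2, hsp-25, hsp-43, dnj-1 and dnj-13. In wild-type the widest of these differences was that of hsp-25, a small heat shock protein that in worms localises to muscle dense bodies, with 26.4 and 56.4 CPM in wild-type, 26.97 and 39.4 in cec-4 embryos and 28.5 and 42.3 in met-2 set-25 embryos. The 6 body wall muscle markers summed to 491 and 946 CPM in wild-type, 507 and 1000 in cec-4 embryos and 505 and 631 in met-2 set-25 embryos. All 6 were higher in library 2 in wild-type and cec-4 embryos, and 3 of 6 in met-2 set-25 embryos. The gene ipp-5 overlaps hsp-25 on the opposite strand and had 3.20 and 8.997 CPM in wild-type. The part of muscle RNA in the level of hsp-25 was not tested.

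**Figure D4:**
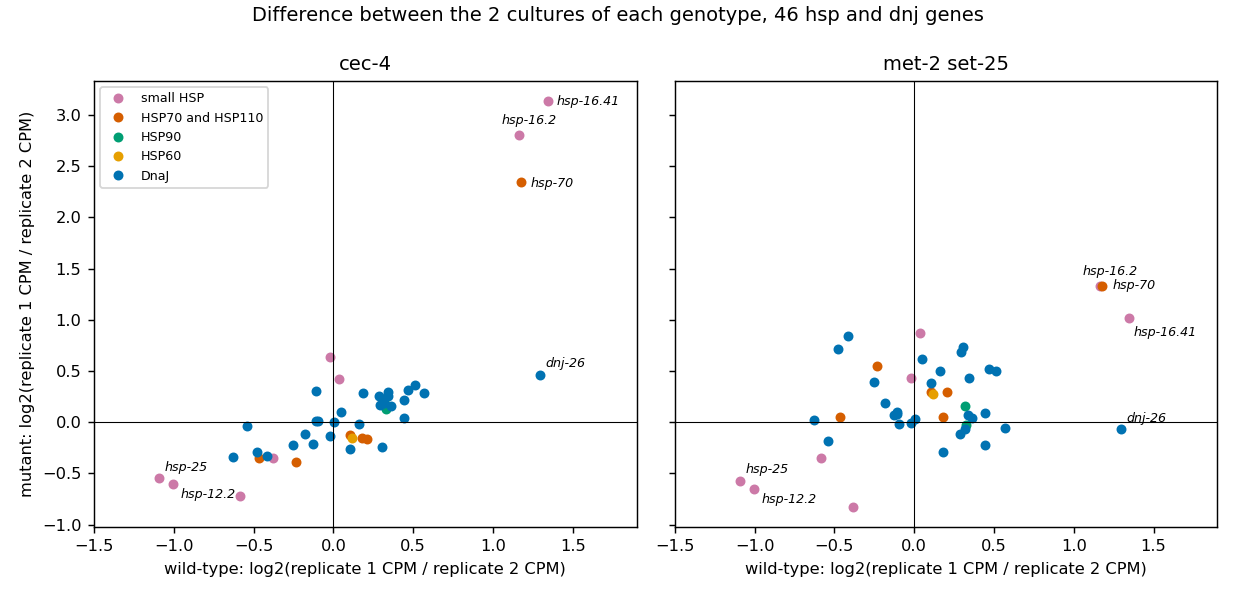
For each of the 46 genes, the log2 ratio of library 1 to library 2 in wild-type (x axis) against the same ratio in cec-4 (left) or met-2 set-25 (right). The points for hsp-16.2, hsp-16.41 and hsp-70 lie above 1 on both axes in both panels, and those for hsp-25 and hsp-12.2 lie below 0 on both.

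Genes of the same pathways without these prefixes were read from lists of the heat shock response and of protein folding. Of 12 heat shock response regulators, edgeR called 0 in each comparison, and 10 had a positive log2 difference in cec-4 embryos (median 0.17) and 2 in met-2 set-25 (median -0.15). Among them the kinase gene hpk-1, known in worms to support the heat shock response, had 138 and 175 CPM in wild-type, 163 and 232 in cec-4 embryos and 153 and 81.5 in met-2 set-25 embryos. Each mutant overlapped wild-type.

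A list of 17 genes held HSP90 and HSP70 cochaperones, such as sti-1 and cdc-37, and also sip-1, a small heat shock gene, and stip-1, which are not cochaperones. Of the 17, 0 were called in each comparison and medians were -0.02 in cec-4 embryos and -0.05 in met-2 set-25. The 14 subunits of the CCT chaperonin and prefoldin also had 0 calls, with medians of -0.01 and -0.0026, and the 31 proteasome subunits had 0 calls with medians of 0.03 and 0.02. Of 17 tested ER folding genes 0 were called, with medians of 0.02 and -0.05. Of 15 genes of mitochondrial stress and import, met-2 itself was called, in both comparisons of the strain that lacks it, and 0 others were. Over all genes the medians were -0.02 and -0.03.

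The members were spread over all chromosomes, with 13 on V, 9 each on I and III, 8 on IV, 7 on II and 5 on X. Of the 46 on autosomes, 14 lay in the outer parts of a chromosome, which together equal the middle part in length and where chromatin methylated at histone H3 lysine 9 is concentrated in worms. The median log2 difference of the tested members was 0.05 in the outer parts and -0.05 in the middle in cec-4. In met-2 set-25 it was -0.15 and -0.10. A protein-coding gene lies on the opposite strand of 13 members, whose counts are uncertain where strand was not used.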

How the data were processed

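RNA of early embryo extracts was depleted of ribosomal RNA and made into ScriptSeq v2 libraries, per the labels' protocols. The authors deposited an unnormalized read count of each of 20182 genes. They also deposited log2 values which, from the values, are log2 of scaled counts plus a pseudocount of 8, and which served only as an alternative. Not given in the sources used here are the aligner, counting tool, genome build, treatment of multiply matching reads and use of strand. Gene symbols came from a name table, which held 18778 of the identifiers, and positions of 19513 genes came from the WBcel235 annotation by identifier. The rows hsp-16.11 and hsp-16.49 share a symbol with hsp-16.1 and hsp-16.48 in that table and were named by RefSeq position.

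The test was that of edgeR 4.0.16, run under R 4.3.3 (filterByExpr, TMM scaling, quasi-likelihood test) in a single fit of all 6 libraries with genotype as the term. Adjustment was by Benjamini-Hochberg over 13951 genes at a threshold of 0.05. CPM use TMM-adjusted library sizes. An SE was taken as the size of the log2 fold change over the square root of F, and errors of levels are SDs over n = 2. Per the labels the replicates were independently grown. The floor of 3 counts covers counting error only. The fit was tested on simulated data. Alternatives used other scalings and filters, DESeq2 1.42.0, limma 3.58.1 (voom, and on the deposited values), only the genotypes compared, a threshold of 0.01, a replicate block, and each library left out.

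Members and lists were chosen with earlier results of these data known. Members named with all library values are the 3 of smallest p in each comparison, the 2 of highest CPM per kb in each family, and the usual stress reporters; hsp-25, hsp-110, dnj-13, dnj-14, dnj-25 and the pathway genes were added after their values were seen. No sequences are shown. Counts in windows of the genome were not used here.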

Additional observations from a re-analysis of the deposited data

How the results depend on the processing

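With 2 libraries a genotype, the SE of a member's log2 difference ran from 0.15 to 0.84, and a p that misses the threshold does not show that levels were alike. The count of members called was 0 in each comparison under every alternative, except that hsp-70 was called in met-2 set-25 compared with wild-type (1 member) without the low-count filter, with DESeq2 and with the replicate block.

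Over all genes, cec-4 against wild-type gave 1 call. It gave 0 with upper quartile scaling, voom, only the genotypes compared or a threshold of 0.01, 2 without the filter or with limma on the deposited log2 values, 3 with DESeq2, and 0 to 1 with a library left out. For met-2 set-25 compared with wild-type the 96 calls became 203 without the filter, 196 with DESeq2 and 16 at a threshold of 0.01. They were 10 without met-2 set-25 library 1, 11 without its library 2 and 107 at most with a library left out. For met-2 set-25 against cec-4 the 89 calls became 256 without the filter, 245 with DESeq2, 170 with limma on the deposited values, 188 with only these genotypes and 20 at 0.01. With a library left out they ranged from 9, without either met-2 set-25 library, through 13 and 23 without cec-4 libraries 2 and 1, to 166 and 211 without wild-type libraries 1 and 2. A lone library was assumed to vary like the other groups.

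The replicate block gave 2, 191 and 295 calls over all genes in the same order of comparisons. The labels do not say that a replicate number marks a batch, and same-numbered libraries deviated together with r of 0.70 (wild-type and cec-4), 0.33 (wild-type and met-2 set-25) and 0.17 (the mutants) across genes, which is a hint from the data. With the block hsp-70 in met-2 set-25 had an edgeR adjusted p of 0.00908.

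The median log2 difference of members ranged with a library left out from -0.0597 to 0.0649 in cec-4, from -0.22 to -0.0932 in met-2 set-25 and from -0.28 to -0.0868 between the mutants. With limma on the deposited values it was -0.0542 in cec-4 and 0.0031 between the mutants, where the median of all genes moved to 0.11.

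Signs that turned were of uncalled, mostly small log2 differences. In cec-4 these were dnj-11 (-0.0107 with limma on the deposited values), dnj-8 (-0.02 with upper quartile scaling, -0.0525 with limma) and hsp-75 (-0.0158 and -0.0464). Between the mutants they were hsp-17 (0.0233 with limma), hsp-70 (0.064 with limma) and hsp-90 (-0.013 with the DESeq2 size factors and with DESeq2). In met-2 set-25 compared with wild-type they were hsp-4 (0.0043 with limma) and hsp-90 (0.0145 with upper quartile scaling, 0.0023 with a minimum of 1 CPM in 2 libraries, 0.0418 with limma). With a library left out, ranges that crossed zero in cec-4 were -0.16 to 0.29 for dnj-11, -0.30 to 0.0176 for dnj-19, -0.0551 to 0.42 for hsp-3, -0.14 to 0.18 for hsp-75 and -0.15 to 0.16 for hsp-90. In met-2 set-25 compared with wild-type they were -0.34 to 0.19 for dnj-11, -0.42 to 0.41 for hsp-12.1, -0.40 to 0.47 for hsp-12.3, -0.35 to 0.14 for hsp-3, -0.19 to 0.10 for hsp-4, -0.22 to 0.0726 for hsp-6, -0.29 to 0.0199 for hsp-75 and -0.15 to 0.16 for hsp-90. Between the mutants they were -0.39 to 0.13 for dnj-11, -0.11 to 0.72 for hsp-12.1, -0.39 to 2.43 for hsp-16.2, -0.58 to 2.55 for hsp-16.41, -0.39 to 0.25 for hsp-17, -1.10 to 1.32 for hsp-70 and -0.11 to 0.11 for hsp-90. Beyond the construction of each alternative, the cause was not tested.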

Other observations

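The pattern of hsp-16.2, hsp-16.41 and hsp-70 over the 6 libraries was set beside that of other genes. Only genes past a bound on level and range were compared, so a like profile at lower level or smaller range could not appear. Among 141 genes with a mean of at least 1 CPM and a range of at least 4-fold, the gene outside these 3 most like their mean log2 profile was acdh-2, with r = 0.671 over 6 libraries, followed by F22B5.4 with r = 0.659. The level of acdh-2 was 241 and 131 CPM in wild-type, 128 and 83.3 in cec-4 embryos and 52.5 and 57.9 in met-2 set-25 embryos. With 6 libraries, these values of r are only a description.

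Close relatives of the inducible genes carry sequence names. F08H9.3, a small heat shock gene, had 4.03 and 2.86 CPM in wild-type, 4.31 and 2.69 in cec-4 embryos and 3.51 and 2.93 in met-2 set-25 embryos, with overlapping groups. F08H9.4 had 0.0219 and 0.143 CPM in wild-type, 0.431 and 0.438 in cec-4 embryos and 0.0994 and 0.123 in met-2 set-25 embryos. Its counts were 1 and 6, 19 and 15, and 3 and 5 in the same order. Both cec-4 libraries were the highest, but library 1 of wild-type and of met-2 set-25 did not exceed the floor of 3 counts. The inducible HSP70 copies F44E5.4 and F44E5.5, which are near copies of each other, had 0 counts in all 6 libraries, as did 1157 genes (5.73%) of the table. As for the hsp-16 copies, a count of 0 in near copies does not show that they were not transcribed.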
